A study of Rattus norvegicus with 30 samples.

Results

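GAERS and NEC rat pups that had received no valproate were compared: 16 brains, 8 from each strain, of the 30 pups in the series. The pups were chosen by their labels alone (non exposed, strain GAERS or NEC), and every difference is given as GAERS minus NEC. GAERS (Genetic Absence Epilepsy Rats from Strasbourg) are an inbred line whose rats have absence seizures without any trigger. Its comparison line, NEC (Non-Epileptic Controls), is inbred too and free of seizures. The other 14 pups, 7 of each strain, had been exposed to VPA (valproate, a drug against seizures and an inhibitor of histone deacetylases). They are used here to see whether a strain difference recurs in separate animals. They also enter the shared estimate of spread, and the NEC among them a comparison of VPA against control. The labels give brain as the tissue and total RNA, with no age, sex, litter, brain region or batch.

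Absence seizures show as spike-and-wave discharges in loops between cortex and thalamus, in which low-threshold T-type calcium channels and GABA receptors set the rhythm of firing. The epilepsy of GAERS is inherited through several loci, and a variant of the T-type channel gene Cacna1h is among the best known. Since GAERS and NEC are separate inbred lines, a difference between them mixes what bears on seizures with every other inherited difference that became fixed in one line. The deposited table names genes by rat Ensembl identifier and does not pair these with symbols, so Cacna1h and markers of brain cells could not be looked up, and brain identity was not checked against markers. What follows therefore describes genes by how many, how large, which way and how abundant they were, and gives 4 by identifier.

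The 16 libraries held 30325916 to 56568656 counts each. Counts did not separate the strains: the means differed by -23620 counts (exact two-sided permutation test, p = 0.996, n = 8 per strain). The TMM scaling factor, which corrects library size for the make-up of the RNA, did differ, at 1.002 ± 0.00726 in GAERS and 0.9775 ± 0.0321 in NEC (SD, n = 8 each, p = 0.00995 by an exact permutation test of both sides, or 0.0298 once adjusted over 3 library measures). A pair of libraries stood apart. NEC control 3 was the highest or lowest of its group in 70.9% of the tested genes, and GAERS control 1 in 59.1%. The other 14 libraries lay between 7.86% and 45.9%. Without both, the TMM factor differed by 0.0146 in place of 0.0246, which did not pass (exact permutation p = 0.0262, or 0.0786 once adjusted). Results are given with and without these 2 libraries.

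Of 15885 genes tested, 1375 differed between GAERS and NEC, or 8.66%: 641 were higher in GAERS (4.04%) and 734 were lower (4.62%). A gene was called where edgeR's quasi-likelihood test gave a Benjamini-Hochberg adjusted p under 0.05, with all 30 libraries sharing 1 estimate of spread. Without NEC control 3 and GAERS control 1, 1503 genes were called (9.46%), and these were evenly divided, with 753 higher and 750 lower. Both fits called 1168 genes in the same direction and 0 in opposite directions. The fits share all libraries but these 2, so the lack of opposite calls is largely built in. The 207 genes called only with the 2 libraries included 144 that were lower in GAERS, and were small differences, with a median of 0.23 on the log2 scale against 0.40 for the 1168 shared genes. Another 335 genes were called only without them.

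The balance between higher and lower genes moved with the scaling, the filter on low counts and the libraries fitted. The share higher in GAERS was 46.6% with TMM, 49.3% with DESeq2 size factors, 57.3% with upper-quartile scaling and 50.1% with TMM but without the 2 outlying libraries. A TMM fit on the 16 unexposed libraries alone gave 51.5%. With all libraries, TMM gave 50.6% with no filter on low counts and 50.4% with a stricter filter. Leaving out NEC control 3 alone gave 53.1%, and leaving out GAERS control 1 alone gave 41.6%. The plot of calls with libraries left out shows that the 2 outlying pups pulled the balance in opposite directions.

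**Figure D1:**
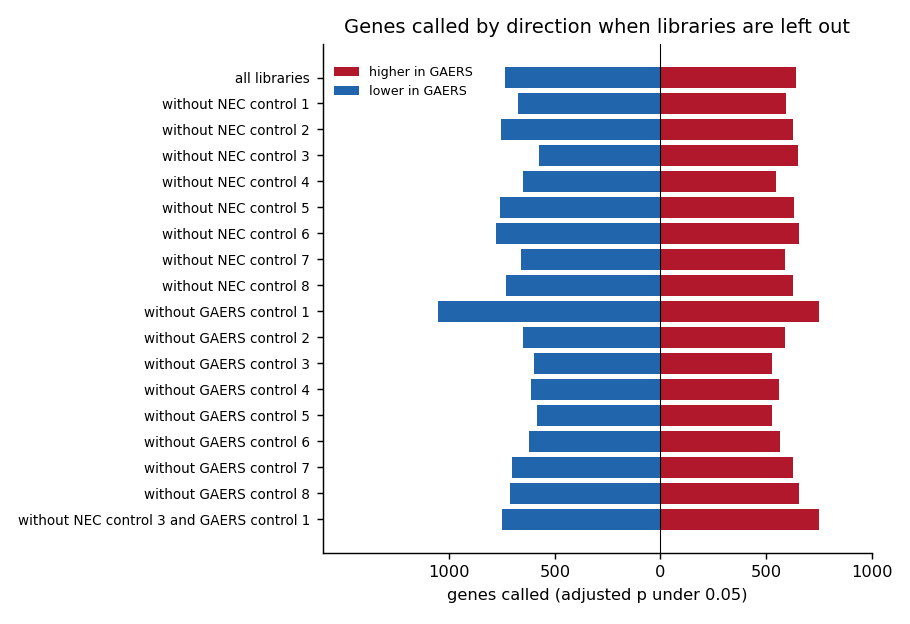
Number of genes called (horizontal axis, adjusted p under 0.05) as higher in GAERS (red, right) or lower in GAERS (blue, left) with all libraries, without each unexposed library in turn, and without both outlying libraries. The lower count is smallest without NEC control 3 (574) and largest without GAERS control 1 (1055).

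Among called genes, large strain differences lay in genes of low abundance, and small ones in abundant genes. Abundance is given as the mean log2 CPM (CPM being the count scaled for library size) over the 16 pups. Part of this pattern is built in. The median standard error was 0.25 below 0 log2 CPM and 0.05 at 8 and above, so small differences could be called only in abundant genes. A gene close to absent in a strain also has its mean over both strains lowered. The 57 called genes that differed by more than 2 on the log2 scale had a median abundance of -1.77, and the 403 called genes that differed by up to 0.25 had a median of 5.64. Among the 57, 30 were higher in GAERS and 27 lower. Most were close to absent in a strain: 28 of the 30 had a mean under 0.5 CPM in NEC, and 23 of the 27 had a mean under 0.5 CPM in GAERS. Between 1 and 2 on the log2 scale there were 163 genes, 86 higher and 77 lower, and between 0.5 and 1 there were 295, 180 higher and 115 lower.

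The direction of called genes changed with abundance, by an amount that depended on the scaling. Of 235 called genes with a mean log2 CPM of 0 to 2, 146 were higher in GAERS, and of 292 at 2 to 4, 172 were higher. From 4 upward most were lower with TMM scaling: 272 of 419 at 4 to 6 (64.9%), 126 of 174 at 6 to 8 (72.4%), and 31 of 37 at 8 and above (83.8%). With upper-quartile scaling called genes were close to evenly divided at 4 to 6 (51.4% lower, 205 of 399) and at 6 to 8 (51.0%, 80 of 157), and 70.6% were lower at 8 and above. Without NEC control 3 and GAERS control 1 the lower share at 8 and above was 66.7% (40 of 60), and those of the other bins were 57.2% at 4 to 6 and 62.6% at 6 to 8. Over all 727 tested genes at 8 and above, called or not, the median difference was -0.05 on the log2 scale, and -0.03 without the 2 libraries. NEC control 3 also had a larger share of its counts in its 100 most abundant genes, 17.3% against 15.1% to 15.6% in the other NEC controls. Its part in the tilt beyond what the values without it show was not tested.

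**Figure D2:**
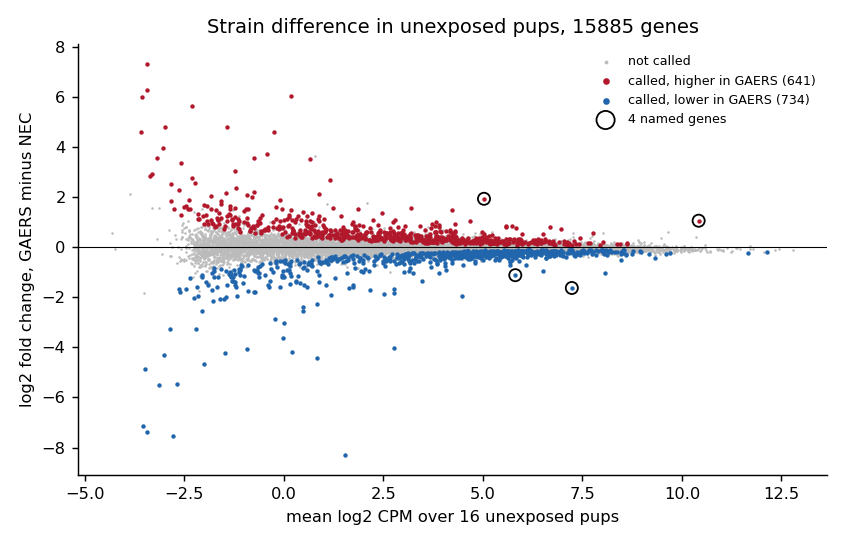
Difference between strains (vertical axis, log2 fold change, GAERS minus NEC) against abundance (horizontal axis, mean log2 CPM over the 16 unexposed pups) for 15885 genes, with called genes in red (641 higher) and blue (734 lower), uncalled genes in grey and 4 named genes circled. Differences beyond 2 lie mostly at the left, among genes of low abundance.

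In 426 of 15885 genes (2.68%) the 8 GAERS and 8 NEC pups did not overlap in CPM. Of these 421 were called, which is 30.6% of the called genes. The other 954 called genes had pups of both strains in a shared range, so their difference is one of means. The share without overlap rose with size, from 15.6% of called genes up to 0.25 on the log2 scale to 51.5% between 1 and 2 and 91.2% over 2. Without the 2 outlying libraries 734 genes (4.62%) did not overlap, a comparison of 7 against 7.

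Most uncalled genes were measured well enough to bound the difference at 0.5 on the log2 scale. Smaller bounds, at the size of most called genes, were not computed. Of the 1375 called genes only 515 were over 0.5, and the median size was 0.37. An uncalled gene was therefore not shown to be equal between strains. Of 14510 uncalled genes, 11575 (79.8%) had a 95% interval that lay within 0.5 on the log2 scale of zero, and 14005 (96.5%) had one within 1. The median standard error was 0.25 for genes below 0 log2 CPM and 0.05 for genes at 8 and above, so small differences were detectable only in abundant genes.

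Among abundant called genes (mean log2 CPM from 5 up), the 2 of highest and the 2 of lowest fold change were taken by rule, and they were of unlike kinds. ENSRNOG00000014090 was at 58.9 CPM in the lowest GAERS pup, with a median of 64.5 and a highest value of 67.8, and ran from 14.8 through a median of 16.5 to 18.3 CPM in NEC. Every GAERS pup lay far above every NEC pup. The means were 64.1 ± 2.81 CPM in GAERS and 16.7 ± 1.24 CPM in NEC (SD, n = 8 each). GAERS exceeded NEC by 1.94 ± 0.05 on the log2 scale (SE, 3.85-fold, adjusted p by edgeR 7.25e-24). The value was 1.94 again without the outlying libraries.

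ENSRNOG00000027513 went the other way, at 32.6, 38.0 and 45.1 CPM (lowest, median and highest) in GAERS and 65.2, 82.0 and 99.7 CPM in NEC. The strains did not overlap, and the lowest NEC value came from NEC control 3 and the highest GAERS value from GAERS control 1. The means were 38.5 ± 4.72 CPM in GAERS and 83.3 ± 10.8 CPM in NEC (SD, n = 8 each). GAERS minus NEC was -1.11 ± 0.09 on the log2 scale (SE, 2.16-fold lower, adjusted p by edgeR 6.56e-11), and -1.18 without those 2 pups.

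The remaining pair varied strongly between pups of the same strain, and in GAERS controls this followed the sets of pups described further below. ENSRNOG00000058105, among the most abundant genes of the table, was at 1216.9, 2050.2 and 3103.4 CPM (lowest, median and highest) in GAERS and 602.1, 916.1 and 1558.8 CPM in NEC. The strains overlapped: NEC control 2 and NEC control 8 were above the lowest GAERS pup. GAERS exceeded NEC by 1.07 ± 0.30 on the log2 scale (SE, 2.10-fold, adjusted p by edgeR 0.0194). Without NEC control 3 and GAERS control 1 the value was 1.09 (edgeR adjusted p = 0.0383). The call was lost without GAERS control 3, the highest pup (log2 fold change 0.96, edgeR adjusted p = 0.0503).

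ENSRNOG00000047098 was lower in GAERS, at 49.2, 88.4 and 146.4 CPM (lowest, median and highest) against 189.1, 259.0 and 464.9 CPM in NEC. The strains did not overlap. GAERS minus NEC was -1.62 ± 0.29 on the log2 scale (SE, 3.08-fold lower, adjusted p by edgeR 0.000277). Without NEC control 3 and GAERS control 1 the value was -1.58 (edgeR adjusted p = 0.00173).

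**Figure D3:**
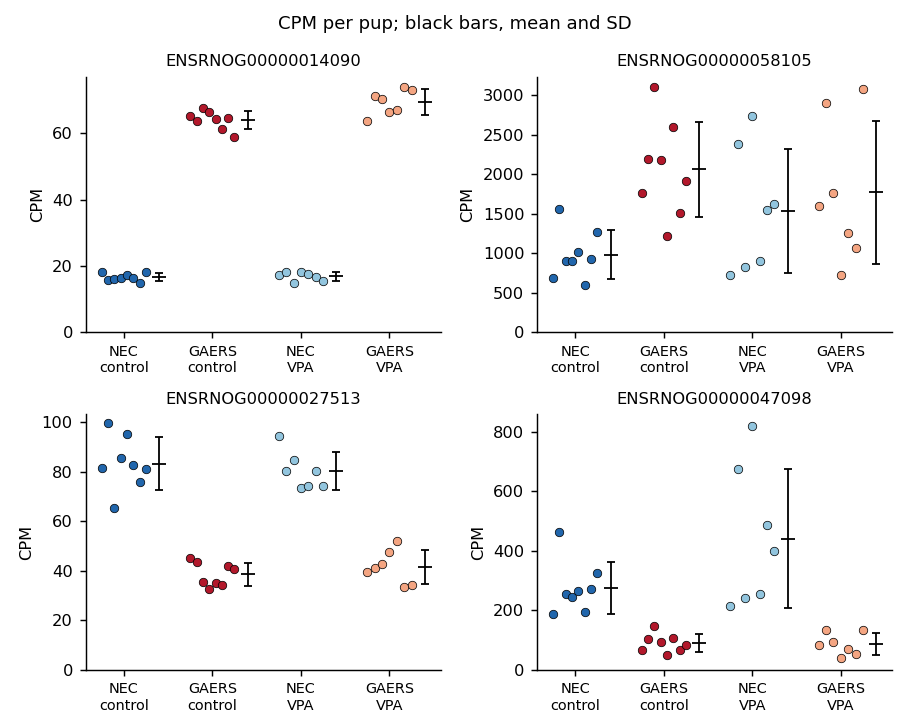
CPM in each pup (points, vertical axes from 0) of the 4 named genes in NEC controls, GAERS controls, exposed NEC (NEC VPA) and exposed GAERS (GAERS VPA), with mean and SD as black bars. ENSRNOG00000014090 and ENSRNOG00000027513 are tight within each strain, whereas ENSRNOG00000058105 and ENSRNOG00000047098 spread widely and share their high pups.

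ENSRNOG00000058105 and ENSRNOG00000047098 kept a fixed proportion to each other within a strain. The ratio of their counts in a pup was 3.12 to 3.91 in NEC controls (3.56 ± 0.263, SD, n = 8) and 21.0 to 25.9 in GAERS controls (23.3 ± 1.67, SD, n = 8). In NEC controls the ratio had a coefficient of variation of 7.4%, against 31.4% for ENSRNOG00000058105 alone. The exposed pups, whose own values enter the choice of these genes only through the shared estimate of spread, scaling and filter, showed the same separation, with ratios of 3.19 to 4.08 in NEC and 18.2 to 23.3 in GAERS. Their summed level was 1259.2 ± 394.9 CPM in NEC and 2150.2 ± 631.1 CPM in GAERS (SD, n = 8 each), with overlap. This ratio was computed after the values had been seen and was not tested. Near-identical copies of a gene can share reads, and whether these 2 are such copies was not tested, so both differences are uncertain as measures of expression.

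Whether the strain differences recurred was examined in the 14 exposed pups, whose group means do not enter the unexposed contrast. They share with it the estimate of spread, and a fit on the 16 unexposed libraries alone called 1137 genes, 1062 of them among the 1375. There 1951 of 15885 genes (12.3%) were called between GAERS and NEC. Of the 1375 genes called in unexposed pups, 1341 (97.5%) had the same sign in exposed pups, 826 (60.1%) were called in the same direction and 0 in the opposite one. Recurrence rose with size: 49.9% of genes up to 0.25 on the log2 scale were called again, 62.4% between 0.5 and 1, 76.1% between 1 and 2, and 93.0% (53 of 57) over 2. The median size in exposed pups was 0.15 against 0.19 for the smallest class, and 3.51 against 3.52 for the largest. Genes near the threshold are chosen partly for a high value, so a lower value in other pups is built into the smaller classes.

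The 4 named genes divided likewise. In exposed pups the log2 fold change was 2.04 ± 0.05 (SE) for ENSRNOG00000014090, -0.95 ± 0.10 for ENSRNOG00000027513 and -2.35 ± 0.32 for ENSRNOG00000047098 (edgeR adjusted p of 2.26e-23, 1.05e-08 and 5.29e-06). ENSRNOG00000058105 did not pass there, at 0.21 ± 0.31 (SE, edgeR adjusted p = 0.699). The difference from its unexposed value, -0.86, did not pass either (edgeR interaction, adjusted p = 0.607), so it was not shown to be specific to unexposed pups. No gene of the table passed that interaction by edgeR (0 of 15885, 0%). The smallest edgeR adjusted p was 0.0551 without NEC control 3 and GAERS control 1, and 0.303 with all libraries. An unadjusted p under 0.05 was found in 1278 of 15885 genes, a larger share than the 0.05 expected if no gene had an interaction. Of the same 15885 genes, DESeq2 called 2 and limma-voom with quality weights 156.

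**Figure D4:**
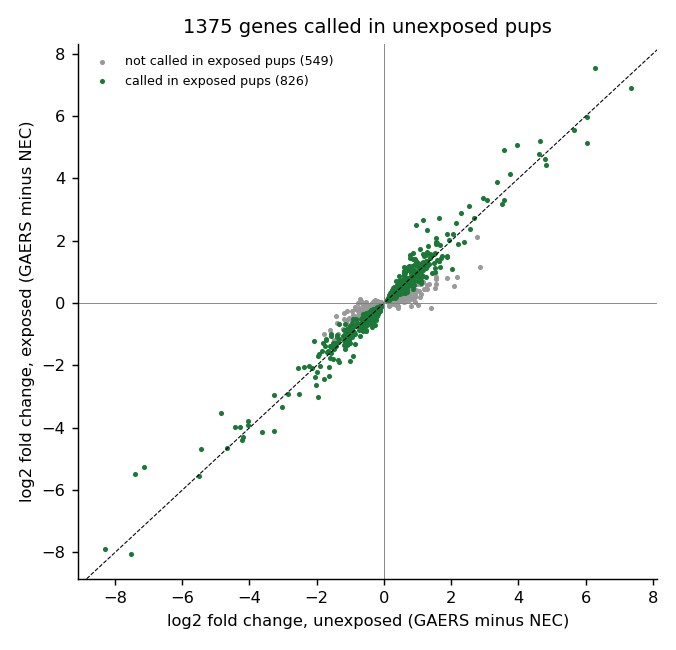
Log2 fold change between GAERS and NEC in exposed pups (vertical axis) against that in unexposed pups (horizontal axis) for the 1375 genes called in unexposed pups, green where also called in exposed pups (826 genes). The dashed line marks equal values, and the 57 genes beyond 2 have a median size of 3.52 in unexposed and 3.51 in exposed pups.

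A chain of 4 filters left 378 genes, or 2.38% of those tested. Only the call in exposed pups brought in other animals, and the rest of the filters reused the unexposed pups. Of the 1375 genes, 1168 were also called without the 2 outlying libraries, 1109 of these also with upper-quartile scaling, and 719 of these also in exposed pups. In 378 of the 719 the unexposed pups of the 2 strains did not overlap. Of the 378, 216 were lower in GAERS, with a median size of 0.49 on the log2 scale, and 162 were higher, with a median of 0.80.

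Genes that differed between strains had another such gene in a nearby row of the deposited table at a higher share than that of called genes among all tested. The table's row order is not explained in the sources used here, and no gene's position was looked up. Of the 1375 called genes, 210 (15.3%) had a called gene in the next tested row, where 8.66% of all tested genes were called. The share was 14.4% at 2 rows apart, 12.1% at 5, 10.1% at 20 and 8.32% at 200. Genes called and over 1 on the log2 scale, 1.38% of those tested, had another such gene in the next row in 18 of 220 cases (8.18%). In exposed pups the share was 17.3% for the next row and 13.0% at 200 rows apart, against 12.3% called.

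Nearby called genes did not all move the same way. Of the 210 called next-row partners, 124 (59.0%) had the same direction as the gene before them. The exposure contrast within NEC (VPA against control), which shares the 8 NEC control libraries with the strain contrast, is set beside it: 25.5% of its called genes had a called gene in the next row, and 24.6% of all genes were called. The difference between the 2 contrasts in this respect was not tested. Genes that overlap or lie antisense can share reads, and the part of shared reads in the next-row value was not tested.

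**Figure D5:**
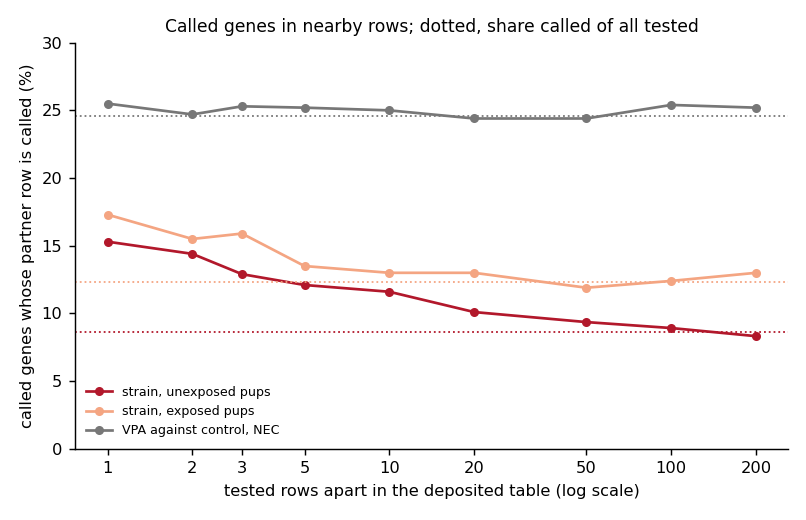
Percent of called genes whose partner, 1 to 200 tested rows further down the deposited table (horizontal axis, log scale), was also called, for strain in unexposed pups (red), strain in exposed pups (orange) and VPA against control in NEC (grey). Dotted lines mark the percent called among all tested genes, 8.66%, 12.3% and 24.6%, and the red line falls from 15.3% to 8.32%.

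The pups of each group fell into 2 sets, and the sets were unevenly shared between the strains. In 8 genes every group split in the same way with a gap of more than 2 on the log2 scale: 6 were high in pups where the other 2 were low. The first set held 3 NEC and 5 GAERS controls, and the second 5 NEC and 3 GAERS controls. The labels do not say what the sets are. None of the 8 genes (0 of 8) was called for strain, against 8.66% of all tested genes. The 8 were chosen for a wide gap within every group, which makes such a call unlikely, so nothing is drawn from this. With the set as a covariate 1245 genes were called, 584 higher and 661 lower, and 1208 of them were among the 1375. Within the first set alone (5 against 3) 435 genes were called, and within the second (3 against 5) 459. Of the 1375 genes, 1374 had the same sign in both sets. The sets are parts of the same unexposed pups that gave the calls, so this agreement is largely built in and is no recurrence in other animals. In the named genes the values within the first and second set were 2.03 and 1.90 for ENSRNOG00000014090, -1.20 and -1.01 for ENSRNOG00000027513, -1.53 and -2.07 for ENSRNOG00000047098, and 1.22 and 0.65 for ENSRNOG00000058105, all on the log2 scale. In GAERS controls the last 2 of these genes followed the sets. ENSRNOG00000058105 was at 1915.4 CPM or more in the first set and 1759.4 CPM or less in the second. ENSRNOG00000047098 was at 84.6 CPM or more and 68 CPM or less. In NEC controls the sets overlapped for both genes. With the set as a covariate the strain difference was 0.88 for ENSRNOG00000058105 (edgeR adjusted p = 0.0394) and -1.81 for ENSRNOG00000047098 (edgeR adjusted p = 1.49e-05). The sets were drawn from the data and bear no label.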

How the data were processed

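Bulk RNA sequencing of brain from 30 pups was used, with groups taken from the labels (8 NEC control, 8 GAERS control, 7 NEC VPA, 7 GAERS VPA). Replicates were numbered by accession, with no pairing between groups. The labels do not say whether pups share a dam, so p-values cover the spread between these pups and nothing wider. The authors deposited raw counts per Ensembl gene. Per the submitters' processing notes, FastQC and STAR 2.5 were used with build Rnor_6.0. How reads were counted, with which annotation and strand setting, is not given in the sources used here.

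Of 32586 rows, 15885 passed filterByExpr (minimum count 10, minimum total 15). Analysis used edgeR 4.0.16 in R 4.3.3: TMM scaling, a robust quasi-likelihood fit of 4 group means on all 30 libraries, and Benjamini-Hochberg adjustment over all tested genes at 0.05. Standard errors were taken from the F statistic. The fit was tested on simulated data. A RefSeq table of 47357 rows held no Ensembl identifier, so 35 gene lists written for this comparison were not run. Replicates differed by more than counting noise (lowest chi-square per degree of freedom 5.15). Named genes were the 2 highest and 2 lowest by fold change among called genes at or above 5 in mean log2 CPM. The comparison, lists and rules were chosen with earlier results of these data known. Alternatives used DESeq2 1.42.0, limma 3.58.1 and sva 3.50.0, other scalings, filters and covariates, and libraries left out. Tests by set of pups, abundance and overlap were added after the data were seen. The windows of rows were too.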

Additional observations from a re-analysis of the deposited data

Results flagged for a closer look

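Within the unexposed groups of 8, a gap between the outermost pup and its neighbour was looked for in 20 groups of values. It was found in 5, where about 1 of the 20 would be expected by chance if they were independent and normally distributed. They were not independent: some came from the same genes, and NEC control 3 was found by more than 1 measure. The excess is therefore uncertain. NEC control 7 had the highest total, 56568656 counts. NEC control 3 had a TMM factor of 0.9053 and 17.3% of its counts in its 100 most abundant genes, each far from the other NEC controls. GAERS control 2 had a TMM factor of 1.018, above the other GAERS controls. GAERS control 1 was the highest or lowest GAERS control in 59.1% of tested genes. NEC control 3, at 70.9% among NEC controls, was not flagged on that measure. The CPM of the 4 named genes held no pup so far out in either unexposed group.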

How the results depend on the processing

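The count of 1375 genes (641 higher, 734 lower) stayed within 1.5 times under other scalings, other filters, DESeq2 and surrogate variables. It did so too with library number or set of pups as a covariate, and in a fit on the 16 unexposed libraries alone. That last fit called 1137 genes, 585 higher and 552 lower. Limma-voom with quality weights called 3000 (1318 higher, 1682 lower). Within the sets of pups, with fewer samples, 435 (184 higher, 251 lower) and 459 (223 higher, 236 lower) were called. A size over 0.5 on the log2 scale left 515 (296 higher, 219 lower), and over 1 left 220 (116 higher, 104 lower). Leaving out each unexposed library gave 1115 to 1806 called, 530 to 751 higher and 574 to 1055 lower. In exposed pups leaving out each library gave 1273 (without GAERS VPA 2) to 2371 called, against 1951. The interaction had 0 calls in edgeR under every scaling tried, with surrogate variables (smallest edgeR adjusted p 0.0823) and without the 2 outlying libraries (0.0551). It had 2 calls with DESeq2 and 156 with limma-voom. The TMM factor differed between strains by 0.0246 (adjusted exact permutation p = 0.0298), and by 0.0146 without the 2 outlying libraries (adjusted exact permutation p = 0.0786). The cause of these gaps was not tested. Of the named genes, ENSRNOG00000058105 lost its call with surrogate variables (log2 fold change 0.91 against 1.07, edgeR adjusted p = 0.0546, range over 27 alternatives 0.00174 to 0.0546) and without GAERS control 3, and the other 3 kept theirs in all 27. The alternatives that needed gene names (a Y-linked covariate, and the gene lists) were not run.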

Other observations

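Called genes were unevenly spread along the deposited table. In 317 windows of 50 consecutive tested rows the median was 4 called genes and the highest was 17, and 21 windows held 0. The window with 17 had 9 genes higher and 8 lower in GAERS. It also held 17 called genes without the 2 outlying libraries. In exposed pups 16 were called there. The exposed contrast shares no group mean with the unexposed one, but shares its estimate of spread, scaling and filter. The window with the next highest count, 16 (7 higher, 9 lower), lay far from it in the table, and held 11 called genes without the 2 libraries and 10 in exposed pups. A window far from both held 13 (7 higher, 6 lower), with 13 without the 2 libraries and 16 in exposed pups. Another window close to the first, with 1 window between them, held 13 (5 higher, 8 lower), of which 2 were over 1 on the log2 scale. There 14 were called without the 2 libraries and 12 in exposed pups. A nearby window held 12, of which 7 were over 1 on the log2 scale and 10 were lower in GAERS. Together the 6 windows with 12 or more called genes held 6.04% of called genes and 1.89% of tested genes. Over all tested genes 8.66% were called in unexposed pups, 9.46% without the 2 libraries and 12.3% in exposed pups. In exposed pups 15 windows held 12 or more called genes. The count of a window takes any called gene, so the genes and directions need not be the same between fits. The window size and the limit of 12 were chosen after the data were seen.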
